A study of Mus musculus with 4 samples.

Results

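The angulin family comprises 3 genes, *Ildr2*, *Ildr1* and *Lsr*, and all 3 were found among the 21462 genes of the deposited expression table by their symbols. All 3 also passed the minimum mean of 10 normalized counts that 16659 genes met. *Ildr2* was picked because it was higher in *Tet3* mutant than in control cells of this very comparison, and *Ildr1* and *Lsr* were added as the rest of its family. The values of the 3 genes between genotypes are therefore a description, and no test is given for them.

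RNA came from smooth muscle cells (SMCs) of the lung of C57BL/6 mice, with 2 libraries from *Tet3* mutants and 2 from controls. TET3 oxidizes 5-methylcytosine in DNA, and the study asked what its loss in SMCs does to transcription. By the study's methods, *Tet3* was removed from floxed alleles by a tamoxifen-inducible Cre under the α-SMA promoter, and control mice lacked the floxed allele but carried the Cre and/or the tdTomato reporter. Tamoxifen was given to the mice, CD45+ and Ter-119+ blood cells were depleted with beads, and living tdTomato+ cells were sorted. Cells other than SMCs that use the α-SMA promoter would carry the reporter too. The labels give neither age, sex nor time after tamoxifen for these libraries. The study describes its RNA-seq replicates as independent animals.

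Angulins are membrane proteins with an immunoglobulin-like domain that mark the corners where 3 epithelial cells meet. There they recruit tricellulin and seal the tight junction. LSR (angulin-1) is also known as a liver receptor for triglyceride-rich lipoproteins, ILDR1 (angulin-2) is needed for hearing, and ILDR2 (angulin-3) is linked to lipid handling in the liver and described as a B7-like inhibitor of T cells. Epithelia of the airways and alveoli are rich in tight junctions, whereas SMCs are not known for them.

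The 3 genes lie on different chromosomes of the mouse genome (GRCm38). *Ildr2* (ENSMUSG00000040612) occupies chromosome 1, 166254139 to 166316823, on the plus strand. *Ildr1* (ENSMUSG00000022900) is at chromosome 16, 36693978 to 36726804, on the plus strand, and *Lsr* (ENSMUSG00000001247) at chromosome 7, 30957770 to 30973464, on the minus strand. They differ in exon length, with 8251 exonic bases for *Ildr2*, 4296 for *Ildr1* and 2172 for *Lsr* in the GENCODE annotation. *Ildr2* spans 62685 bases of genome and *Lsr* 15695.

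Because TET enzymes act on methylated cytosines, which in most mouse tissues sit in CpG dinucleotides, the 250 bases before each start site are shown, from RefSeq on GRCm38.p6, 5′ to 3′ along the gene, with every CG in capitals.
Ildr2: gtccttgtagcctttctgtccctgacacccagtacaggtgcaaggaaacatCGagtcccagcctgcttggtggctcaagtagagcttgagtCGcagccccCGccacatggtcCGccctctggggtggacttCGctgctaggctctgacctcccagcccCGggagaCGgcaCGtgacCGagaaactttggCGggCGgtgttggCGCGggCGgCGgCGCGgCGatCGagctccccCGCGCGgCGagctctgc
Ildr1: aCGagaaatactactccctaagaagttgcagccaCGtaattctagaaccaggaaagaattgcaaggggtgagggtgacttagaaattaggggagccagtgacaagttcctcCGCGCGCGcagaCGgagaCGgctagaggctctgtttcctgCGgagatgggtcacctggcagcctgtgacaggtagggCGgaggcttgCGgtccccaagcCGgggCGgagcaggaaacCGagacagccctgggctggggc
Lsr: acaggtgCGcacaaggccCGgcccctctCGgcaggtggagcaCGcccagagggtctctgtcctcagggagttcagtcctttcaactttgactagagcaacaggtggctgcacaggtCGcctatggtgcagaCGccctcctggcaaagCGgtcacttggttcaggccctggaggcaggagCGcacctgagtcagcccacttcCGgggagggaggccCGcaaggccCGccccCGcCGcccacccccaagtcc

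These windows are chr1:166253889-166254138, chr16:36693728-36693977 and chr7:30973470-30973719. The *Ildr2* window held 23 CG dinucleotides, 19 of them in the 125 bases next to the start, and 13.3% of 32851 mouse promoter windows of the same length held as many or more. The *Ildr1* window held 14 and the *Lsr* window 13, numbers reached by 29.4% and 31.5% of windows, and the median window had 6. CG reads the same on both strands. No methylation was measured in these libraries, so the letters describe the promoters and nothing about their state.

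The depth was alike across libraries by the low values, which pointed to 6.32 M to 7.56 M reads assigned to genes. Deposited totals were 6805272 to 7164573 normalized counts, which are already scaled and do not measure depth. *Tet3* had 1847 and 1926 normalized counts in the controls and 1534 and 1444 in the mutants, 0.789 times the control mean, counted over all its exons and not over the deleted part alone. The 10 smooth muscle markers stood at percentiles 44.4 (*Cnn1*, calponin) to 99.0 (*Mylk*, the myosin light chain kinase) per kb of exon. *Acta2*, the gene of α-SMA, was at 98.55 and *Myh11*, the smooth muscle myosin heavy chain, at 95.8. The 8 general epithelial markers ran from 37.0 (*Esrp1*) to 98.1 (*Cdh1*), with *Epcam* at 89.6. *Sftpc*, the surfactant protein of alveolar type 2 cells, was at 100. The 8 endothelial markers ran from 51.8 (*Emcn*) to 99.5 (*Cdh5*), and the 8 fibroblast markers from 80.15 (*Pi16*) to 99.95 (*Inmt*). The 8 macrophage markers ran from 40.0 (*Marco*) to 99.4 (*C1qb*). RNA of epithelial, endothelial, fibroblast and macrophage markers was thus also abundant in cells labelled as SMCs. Control library 2 stood apart. It had 2 normalized counts of the X-inactivation transcript *Xist*, against 5214 to 6781 in the others, and 774 of Y-linked *Ddx3y*, which was listed at 0 elsewhere. By these transcripts control library 2 was male, whereas control library 1 and both mutants were female. Sex was thus not balanced between genotypes, and what sets control library 2 apart cannot be told apart from sex.

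*Ildr2* was the member that was higher in the mutants. It had 479 and 433 normalized counts in control libraries 1 and 2, and 1089 and 927 in *Tet3* mutant libraries 1 and 2. Both mutant libraries lay above both controls, and the lower mutant was 1.94 times the higher control. The means were 456 ± 32.5 in controls and 1008 ± 115 in mutants (SD, n = 2 each), a ratio of 2.21. On the log2(value + 1) scale the difference was 1.14 with a standard error of 0.13. Of all genes tested, 19.6% had non-overlapping groups that were higher in the mutants, and nothing is read from this share for a gene picked on that contrast. Among 12788 genes with a mean of at least 50, 111 were higher without overlap and by more than 1 log2 unit. The difference stayed between 1.02 and 1.26 when any 1 library was left out. An estimated 412 to 1029 reads stood behind each value.

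*Ildr1* went the other way by its mean, but 1 library set that mean. The control libraries had 61 and 195 normalized counts and the mutants 49 and 59. Control library 2 was 3.20 times control library 1, whereas control library 1 and mutant library 2 were only 2 counts apart. The groups did not overlap, as was so for 19.5% of all genes tested in this direction. Means were 128 ± 94.8 in controls and 54 ± 7.07 in mutants (SD, n = 2 each), and the log2 difference was -1.01 with a standard error of 0.58. Control library 2 was more than 2-fold above each of the other libraries for *Ildr1*, as for 3.9% of all genes tested. Without it the log2 difference was -0.18, and without control library 1 it was -1.84. The genotype means of *Ildr1* were closer than the 2 controls were to each other. *Ildr1* rested on an estimated 45 to 185 reads per library.

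*Lsr* did not separate the genotypes. It had 218 and 483 normalized counts in the controls and 173 and 299 in the mutants, so that both mutants lay below control library 2 and to either side of control library 1. The means were 350.5 ± 187 and 236 ± 89.1 (SD, n = 2 each), with a log2 difference of -0.51 and a standard error of 0.46. Control library 2 was highest for *Lsr* as for *Ildr1*, and it was highest in 33.2% of all genes tested. Leaving it out turned the direction, to 0.06. The coefficient of variation between controls was 53.5% for *Lsr*, 74.0% for *Ildr1* and 7.13% for *Ildr2*. As *Ildr2* was picked for its difference between these groups, nothing is read from its smaller spread.

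**Figure D1:**
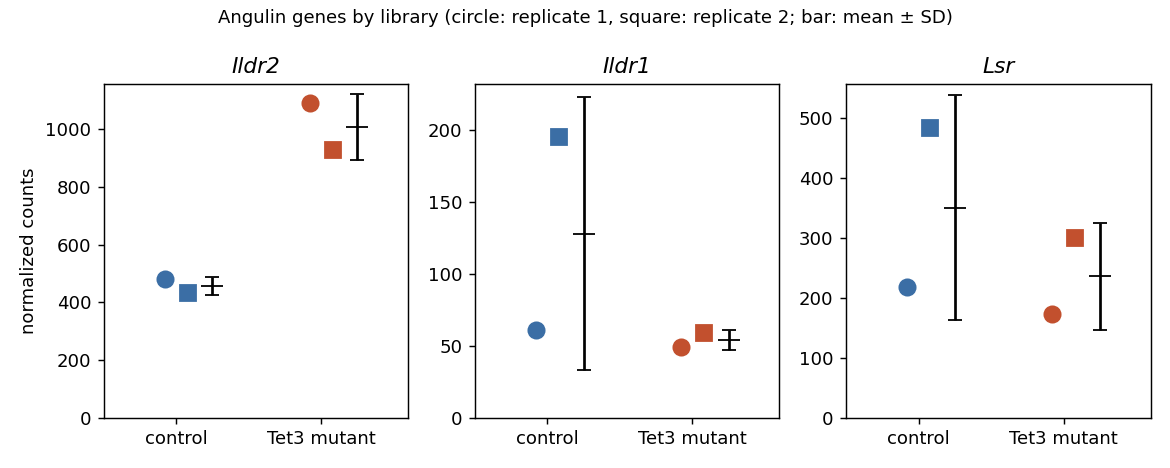
Normalized counts of *Ildr2*, *Ildr1* and *Lsr* (y axes, each from 0) in control (blue) and *Tet3* mutant (red) libraries, circles for replicate 1 and squares for replicate 2, with mean ± SD as black bars (n = 2). *Ildr2* was picked for being higher in this contrast, so nothing is read from its separated groups or the closeness of its replicates. For *Ildr1* and *Lsr* control library 2, at 195 and 483, is above the other 3 libraries.

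Levels of different genes can be set side by side only per length, so normalized counts were divided by kilobases of exon. On this scale *Lsr* was the leading angulin of both controls, with 100 and 222 per kb, followed by *Ildr2* with 58.1 and 52.5 and *Ildr1* with 14.2 and 45.4. In the mutants *Ildr2* had 132 and 112 per kb, *Lsr* 79.7 and 138, and *Ildr1* 11.4 and 13.7. The ranges of *Ildr2* and *Lsr* overlapped in the mutants and did not in the controls, whereas *Ildr1* was lowest in each library. Averaged over the 4 libraries, *Lsr* stood at percentile 80.8 of genes tested per kb, *Ildr2* at 66.5 and *Ildr1* at 25.6.

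As a share of the family's summed level per kb, *Ildr2* made up 33.6% and 16.4% in the controls and 59.2% and 42.6% in the mutants. The share of *Lsr* was 58.1% and 69.4% in control and 35.7% and 52.2% in mutant libraries. *Ildr1* contributed 8.23% and 14.2%, then 5.11% and 5.21%. The sum over the family, 173 and 320 per kb in control and 223 and 264 in mutant libraries, overlapped between genotypes. *Ildr2* was thus the leading family member in mutant library 1 alone, at 1.66 times *Lsr* per kb, and came to 0.816 times *Lsr* in mutant library 2.

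**Figure D2:**
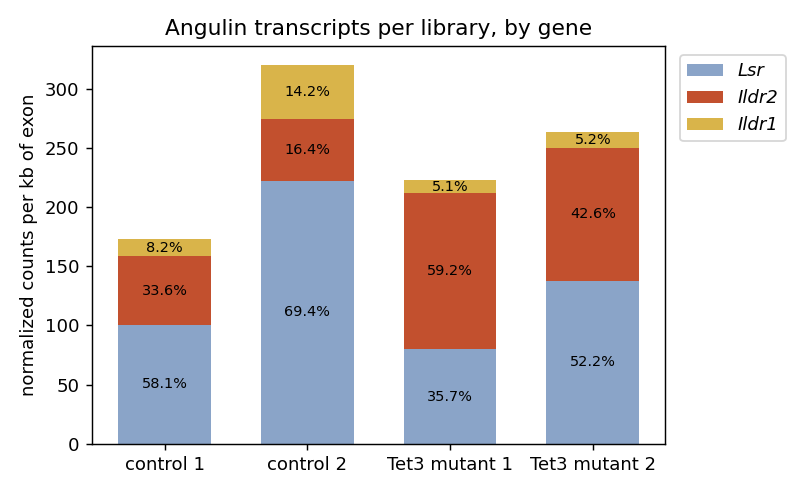
Stacked bars of *Lsr*, *Ildr2* and *Ildr1* in normalized counts per kb of exon (y axis, from 0) for each of the 4 libraries, with each gene's share of its library's sum printed inside. The *Ildr2* share is 16.4% and 33.6% in controls and 42.6% and 59.2% in mutants, while the sum is highest in control library 2.

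Antisense genes touch the family. The annotation places 5330438I03Rik, an antisense gene, inside *Ildr2* and over 911 of its exonic bases (11%), and this gene is not analysed here. At the end of *Lsr*, the antisense genes *Gm4673* and *Gm17077* share 946 (43.6%) and 25 (1.15%) of its exonic bases. *Gm4673* had 246 and 232 normalized counts in control and 168 and 206 in mutant libraries, a pattern without the excess that *Lsr* showed in control library 2. Whether counting used the strand is not given in the sources used here, so the values of *Lsr* and *Ildr2* are uncertain over these bases.

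The genes of the tight junction differed in direction by list, with 0 of 3 tricellulin and MARVEL proteins, 1 of 14 scaffolds, 5 of 11 claudins and 3 of 7 adhesion proteins above 0 in log2 difference. Of 48 listed genes (tricellulin and its relatives, claudins, scaffolds and immunoglobulin-like adhesion proteins), 38 were in the table and 35 were tested. Not one passed an adjusted p of 0.05 by limma, and neither did any other gene (0%, with 0.0902 as the lowest adjusted p). By unadjusted p under 0.05, limma counted 4 (11.4%), 1 higher and 3 lower in the mutants, against 6.68% of all genes (3.83% higher and 2.85% lower). The median log2 difference was -0.37, against -0.01 for all genes, and 9 of 35 were above 0 (25.7%, against 49% of all genes). The median was -0.11 without control library 2, -0.62 without control library 1, -0.30 without mutant library 1 and -0.35 without mutant library 2. The count at an unadjusted p under 0.05 also moved with the library left out. With a replicate block the count was 14 of 35, against 9.83% of all genes. Without the mean-variance trend it was 1 of 35, against 6.83%.

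Tricellulin itself, *Marveld2*, which angulins bring to tricellular contacts, had 126 and 170 normalized counts in control and 73 and 113 in mutant libraries. Its log2 difference was -0.68 with a standard error of 0.31 (limma, adjusted p 0.681), and was -0.47 without control library 2 and -0.37 without mutant library 1. Occludin (*Ocln*), a strand protein of the tight junction, had 346 and 487 in control and 302 and 333 in mutant libraries. *Marveld3* had 50 and 185, then 33 and 48. For all 3 proteins of this kind both mutants lay below both controls and control library 2 was highest, as was so for 19.5% and 33.2% of all genes tested.

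Claudins form the strands between cells, and 11 of 14 in the table were tested. Of these 5 were above 0, and the groups did not overlap for 2 that were higher and 1 that was lower in the mutants. These shares, 18.2% and 9.09%, did not exceed the 19.6% and 19.5% of all genes. *Cldn12* had the smallest p, with 314 and 386 normalized counts in control and 211 and 277 in mutant libraries (log2 difference -0.52, standard error 0.20, limma unadjusted p 0.0486, adjusted p 0.681). Its difference was -0.33 without mutant library 1. *Cldn1*, picked after its values were seen, lay the other way with 313 and 237, then 349 and 443 (log2 difference 0.53, limma unadjusted p 0.0514, adjusted p 0.681). Endothelial *Cldn5* was the most abundant per kb and had 675 and 580 in control and 692 and 634 in mutant libraries, a difference smaller than the spread between replicates. Epithelial *Cldn3*, second per kb, had 369 and 753, then 204 and 385, so the genotypes overlapped.

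Scaffolds anchor the strands to the cytoskeleton under the membrane. Control library 2 was the highest of the 4 libraries in 13 of 14 of them (92.9%, against 33.2% of all genes), and both mutants lay below both controls in 7 (50%, against 19.5%). *Magi3* had 1300 and 1892 normalized counts in control and 1034 and 1095 in mutant libraries (log2 difference -0.56, standard error 0.20, limma unadjusted p 0.0354, adjusted p 0.681), and its difference was -0.29 without control library 2. ZO-1 (*Tjp1*), found in many cell types, was nearly level at 2657 and 2763, then 2626 and 2471.

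The adhesion proteins of the immunoglobulin superfamily differed in direction among themselves. *Jam3* was the only 1 of the 4 junction genes at an unadjusted p under 0.05 with *Ildr2*'s direction, with 211 and 167 normalized counts in control and 320 and 288 in mutant libraries (log2 difference 0.69, standard error 0.18, limma unadjusted p 0.0128, adjusted p 0.681). *Cxadr*, the coxsackievirus and adenovirus receptor, had 442 and 732 in control and 196 and 352 in mutant libraries, a log2 difference of -1.11 with a standard error of 0.37 (limma unadjusted p 0.0290, adjusted p 0.681). Without control library 2 the difference of *Cxadr* was -0.75, and without mutant library 1 it was -0.69. *Esam* had 616 and 782, then 602 and 617, and *F11r* (JAM-A) 388 and 637, then 451 and 519. The sign of *F11r* was not stable, at -0.04 as deposited and 0.01 with equal library totals.

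**Figure D3:**
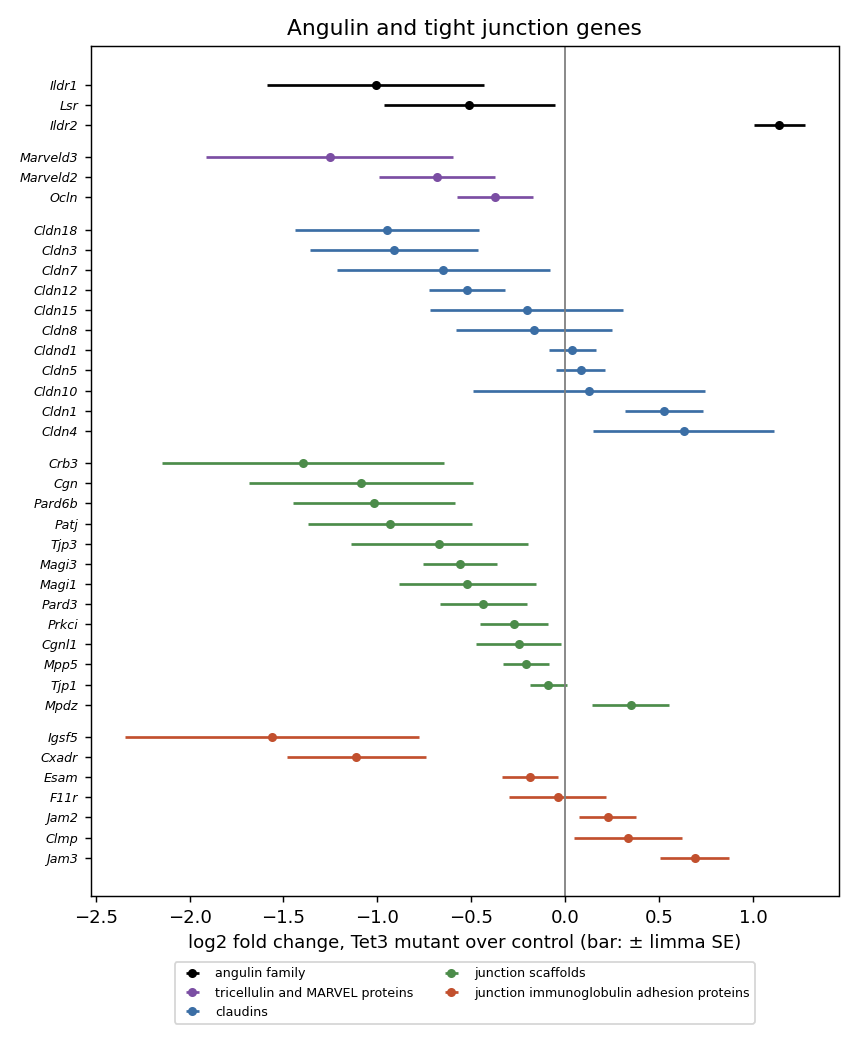
Log2 difference between *Tet3* mutant and control means with its limma standard error (x axis) for the 3 angulins and the tested tight junction genes (y axis), coloured by list, with 1 scaffold of the 35 genes not drawn. *Ildr2*, at 1.14, was picked for being higher in this contrast, so nothing is read from its place to the right of the junction genes. Of the 35 junction genes 9 are above 0, and *Ildr1* and *Lsr* are at -1.01 and -0.51.

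The sums of general and alveolar epithelial markers were highest in control library 2, as *Ildr1* and *Lsr* were, whereas those of the airway's club and ciliated cells were not. The 8 general epithelial markers summed to 3229 and 6218 normalized counts in control and 2665 and 3682 in mutant libraries, with none at 0 in any library. Control library 2 was thereby 1.93 times control library 1, next to 3.20 times for *Ildr1* and 2.22 times for *Lsr*, and it was highest in 7 of the 8. The 8 markers of alveolar type 2 cells, which make surfactant, summed to 14928 and 22359 in control and 10571 and 13545 in mutant libraries. All 8 were below 0 in log2 difference, 3 at an unadjusted p under 0.05 by limma (37.5%, against 2.85% of all genes in this direction) and none at an adjusted p under 0.05. The 5 markers of alveolar type 1 cells summed to 1790 and 2831 in control and 1430 and 1940 in mutant libraries. Only 3 of these 5 were highest in control library 2. *Hopx* (226 and 215, then 245 and 248) and *Pdpn* (339 and 245, then 426 and 404) were lowest there and higher in both mutants. The 4 club cell markers summed to 1734 and 971, then 1348 and 1664, so that control library 2 was lowest. In bulk samples fewer cells of a type and less RNA per cell cannot be told apart, and the part of epithelial RNA in the values of *Ildr1* and *Lsr* was not tested.

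Markers of ciliated cells were higher in both mutants, as *Ildr2* was. So were the summed smooth muscle, cardiomyocyte, macrophage, T cell and endothelial markers, and the pattern is not particular to ciliated cells. The 6 ciliated cell markers summed to 1421 and 1468 normalized counts in control and 2932 and 2028 in mutant libraries, all 6 with both mutants above both controls (100%, against 19.6% of all genes). *Foxj1*, the master regulator of motile cilia, had 249 and 301 in control and 535 and 431 in mutant libraries (log2 difference 0.81, limma unadjusted p 0.00597, adjusted p 0.681). Mutant library 1 was 2.06 times control library 1 for the ciliated sum and 2.27 times for *Ildr2*, and mutant library 2 was 1.43 and 1.94 times. The 10 smooth muscle markers summed to 10762 and 11305 in control and 12895 and 11870 in mutant libraries, and the 6 cardiomyocyte markers to 430 and 272, then 644 and 583. Of these cardiomyocyte markers *Nppa* was listed at 0 in both controls. The 8 endothelial markers ranged only from 13229 to 14390 over the 4 libraries and the 8 fibroblast markers from 15319 to 18759. The part of any of these cell types in the *Ildr2* value was not tested.

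**Figure D4:**
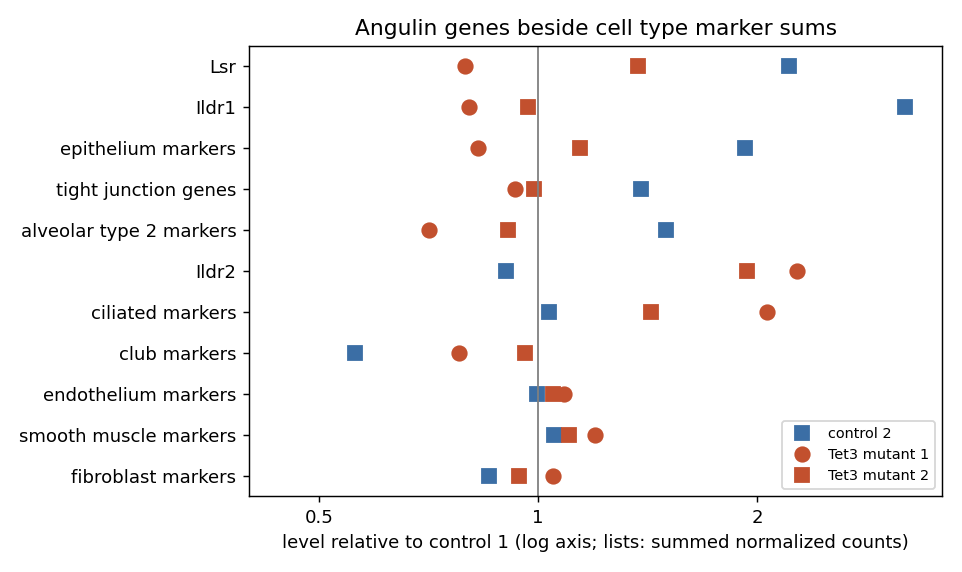
Level in control library 2 and both *Tet3* mutant libraries relative to control library 1 (x axis, log scale, 1 marked by a line) for the 3 angulins, the summed tight junction genes and summed marker lists of cell types (y axis). *Lsr* and *Ildr1* share with the general epithelial sum an excess in control library 2 (2.22, 3.20 and 1.93) that the club cell sum lacks. *Ildr2* shares with the ciliated sum an excess in both mutants, which the smooth muscle and endothelial sums show too, though smaller.

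The genes whose pattern was closest to each member over the 4 libraries were sought by the distance between centred log2 values, among genes with a mean of at least 50. For *Ildr2* these were *Gm281* (distance 0.104), *Stmnd1* (0.112), *Syt5* (0.171), *Tmem232* (0.175) and *Spon2* (0.183). *Spon2*, which encodes the matrix protein spondin-2, was near *Ildr2* in value too, with 436 and 385 normalized counts in control and 933 and 715 in mutant libraries. *Stmnd1* had 50 and 45 in control and 121 and 107 in mutant libraries, and *Syt5*, a synaptotagmin of vesicle release, 44 and 46, then 106 and 98. Since likeness to *Ildr2* over 4 libraries is likeness in this contrast, these genes carry no test.

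For *Ildr1* the closest genes, taken by the same measure after the values were seen, were *Gramd2* (0.0637), *Rph3al* (0.0878), *Fam160a1* (0.0987), *Tnk1* (0.0998) and *Cgn* (0.145). *Cgn* encodes cingulin, a cytoplasmic protein of the tight junction, and had 187 and 659 normalized counts in control and 146 and 186 in mutant libraries. For *Lsr* they were *Marchf9* (0.0555), *Stard10* (0.148), *Pafah1b3* (0.148), *Plekhb1* (0.150) and *H2aj* (0.158). *Stard10*, a lipid transfer protein, had 278 and 615 in control and 210 and 336 in mutant libraries. As these 10 genes were picked for their likeness over the same 4 libraries, their peak in control library 2 follows from the choice.

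ILDR2 has been described as B7-like, so the B7 family of T-cell ligands was read beside it. Of its 8 listed genes 6 were tested, of which 5 were above 0 (83.3%, against 49% of all genes) and 1 was at an unadjusted p under 0.05 (16.7%, against 6.68%). This was *Cd86*, a costimulatory ligand of antigen-presenting cells, with 187 and 177 normalized counts in control and 280 and 302 in mutant libraries (log2 difference 0.67, standard error 0.15, limma unadjusted p 0.00636, adjusted p 0.681). The difference of *Cd86* stayed between 0.62 and 0.73 when any 1 library was left out. *Vsir* and *Icosl*, the most abundant per kb, had 1159 and 940, then 1189 and 1231, and 739 and 511, then 786 and 812. The 8 macrophage markers, which mark cells that carry *Cd86*, summed to 5636 and 4931 in control and 6310 and 7248 in mutant libraries, and their part in the *Cd86* value was not tested.

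LSR takes up lipoproteins, and the lipoprotein receptors were read beside it. All 8 were tested, 3 were at an unadjusted p under 0.05 and all 3 were lower (37.5%, against 2.85% of all genes). The count was 1 without the mean-variance trend, when 6.83% of all genes were counted, and it fell whichever library was left out. *Lrp2* (megalin), an endocytic receptor of epithelia, had 2494 and 6258 normalized counts in control and 783 and 1624 in mutant libraries (log2 difference -1.81, standard error 0.54, limma unadjusted p 0.0198, adjusted p 0.681). Its difference was -1.14 without control library 2 and -1.28 without mutant library 1. *Sort1* (sortilin) had 3417 and 3452, then 2600 and 2859, with tight controls (log2 difference -0.33, limma unadjusted p 0.0236, adjusted p 0.681). *Lrp1*, the most abundant per kb, had 11195 and 10565, then 11720 and 9794, and its difference of -0.02 was 0.03 with equal library totals.

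The genes around *Ildr2* showed no common direction. Within 1 Mb of its middle on either side 16 other genes were tested, and 0 had an unadjusted p under 0.05 by limma, against 6.68% of all genes. Of the 16, 8 were above 0 and their median log2 difference was -0.07. The nearest were *Pou2f1* on one side, with 902 and 806 normalized counts in control and 786 and 742 in mutant libraries, and the antisense gene *Gm15853* on the other, with 18 and 12, then 9 and 8. Next to *Gm15853* lay *Tada1*, with 183 and 208 in control and 195 and 211 in mutant libraries. Without the mean-variance trend in the fit the count was 2, when 6.83% of all genes were counted.

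**Figure D5:**
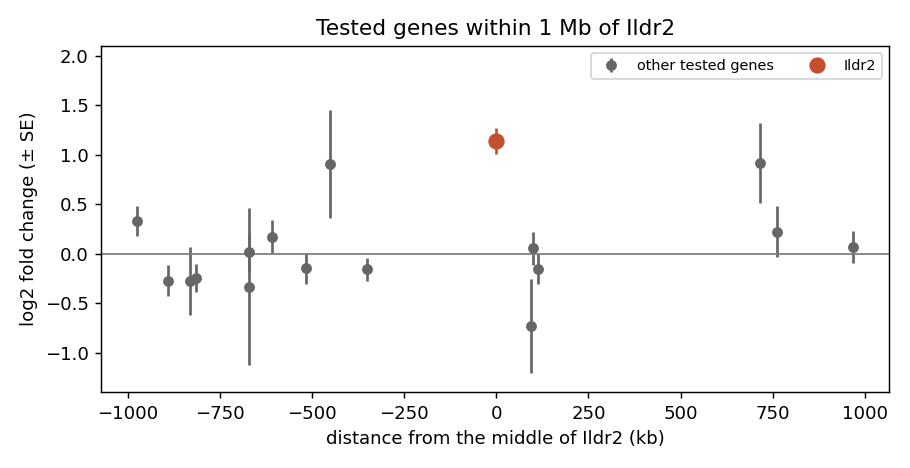
Log2 difference between *Tet3* mutant and control means with its limma standard error (y axis) against distance from the middle of *Ildr2* in kb (x axis), for *Ildr2* (red) and the 16 other tested genes within 1 Mb (grey). *Ildr2* is at 1.14, and its neighbours scatter around a median of -0.07.

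Around *Ildr1* 21 other genes were tested within the same distance, 2 higher and 1 lower at an unadjusted p under 0.05 (3.83% and 2.85% of all genes), with a median of 0.03. *Cd86* was one of them, with its middle at -75.4 kb from that of *Ildr1*, and both its mutant values lay above both controls whereas those of *Ildr1* lay below. Around *Lsr* 51 were tested, 2 higher and 1 lower, a share near that of all genes, with a median of 0.01. *Fam187b*, whose middle lay 16.1 kb from that of *Lsr*, had 19 and 86 normalized counts in control and 15 and 21 in mutant libraries, the same excess in control library 2, and was picked for mention after its values were seen.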

How the data were processed

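By the study's methods, ribosomal RNA was depleted, stranded total RNA libraries were sequenced single-end, and reads were trimmed with Trimmomatic (0.36 in the submitters' processing notes), aligned with STAR (2.6.0c) to GRCm38 and counted over exons with featureCounts of Subread (1.6.0), without reads of several genes or places. The deposited values are a score: counts per gene that the authors scaled with DESeq2 and rounded to integers. As raw counts could only be estimated from them, no count test was run. Samples were grouped by their titles.

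Library scaling factors were estimated from the missing and doubled low values, and checked on simulated libraries. Expression was compared on log2(value + 1), which understates changes of low genes, with limma 3.58.1 in R 4.3.3 (lmFit, eBayes with trend) over the 16659 genes averaging 10 or more, and Benjamini-Hochberg adjustment at 0.05. The fit was tested on simulated data. With 2 libraries a group, which the study describes as independent animals, the estimate of spread rests on 2 residual degrees of freedom per gene before it is shared across genes.

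Members and gene lists were chosen with earlier results of these data known. Named from each pathway list were up to 4 genes of smallest unadjusted p under 0.05 without overlap and the 2 highest per kb, from the neighbours of *Ildr2* the nearest on each side, and the 5 genes most like *Ildr2*; the rest of the names were chosen after values were seen. Values of 2 listed genes are not reported here. Exon lengths came from GENCODE M21 and promoters from RefSeq, both on GRCm38. Alternatives were other pseudocounts, minimum means and scalings, no trend, a replicate block and leaving out each library.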

Additional observations from a re-analysis of the deposited data

How the results depend on the processing

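The differences of *Ildr2*, *Ildr1* and *Lsr* kept their direction under the pseudocounts and scalings. The minimum mean, the trend and, in this balanced design, the replicate block cannot change these differences. Leaving out 1 library gave 1.02 to 1.26 for *Ildr2*, -1.84 to -0.18 for *Ildr1* and -1.08 to 0.06 for *Lsr*, which reversed without control replicate 2 (0.061). Genes past the adjusted threshold numbered 0, and 1 without the trend; the number stayed 0 when 1 library was left out. Genes at an unadjusted p under 0.05 numbered 1112, and 1637 under the block. Equal totals raised the share of them that were higher from 57.4% to 69.2%.

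Tight junction genes at an unadjusted p under 0.05 numbered 4. They were 1 without the trend, 14 under the replicate block and 0 to 20 when 1 library was left out, highest without control replicate 1. Fits that leave 1 library in a group assume that it varies like the other group. Genes near *Ildr2* numbered 0, and 2 without the trend, and their count rose without control replicate 1, as that of all genes did. Lipoprotein receptors numbered 3, and 1 without the trend, and fewer than 3 whichever library was left out. Leaving out 1 library gave log2 differences of -2.47 to -1.14 for *Lrp2* and -0.40 to -0.26 for *Sort1*. The causes were not tested. Same-numbered libraries correlated at 0.13 in their deviations over 2 pairs, too few to show a pairing.

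Of other named genes, *F11r* reversed with equal totals (0.0092) and *Lrp1* with equal totals (0.027) and upper quartiles set equal (0.0091). Leaving out 1 library reversed *Cldn5* (-0.027 to 0.19), *F11r* (-0.40 to 0.32) and *Lrp1* (-0.15 to 0.11). With an estimated 45 reads at its lowest, *Ildr1* is the member most limited by depth.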
